A study of Homo sapiens with 9 samples.

Results

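The insulin-like growth factor binding proteins are encoded by the 7 genes IGFBP1 to IGFBP7, which were taken by symbol from the 58735 genes of the deposited table. The family was picked from results of these data, and which measured values decided the choice is not recorded. IGFBP3 had been seen among the genes lower than WT CDK9 both after ALK inhibition and with Tyr19Phe CDK9, so its differences were taken as the values used. The levels of IGFBP3 are therefore given as a description, with no p-value for any difference between the groups. Values of the other members may also have been in view, so their tests are not independent evidence. Of the 7 members, 6 passed the filter on low counts and IGFBP2 did not.

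RNA was sequenced from 3 groups of SKOV3 cells, a human ovarian cancer cell line, with 3 libraries per group. The first group expressed WT CDK9 under basal conditions, the second expressed WT CDK9 and received an ALK inhibitor for 24 h, and the third expressed Tyr19Phe CDK9, in which the phosphorylated tyrosine of the kinase is replaced by phenylalanine. CDK9 is the kinase of the elongation factor P-TEFb, which acts on RNA polymerase II. The comparisons ask how RNA levels differ when ALK is inhibited or when this tyrosine of the introduced CDK9 cannot be phosphorylated. The study describes stable lines that re-express WT or Tyr19Phe CDK9 in cells depleted of CDK9. Whether the cells' own CDK9 was depleted in the sequenced cells is not given in the sources used here. Neither the name nor the dose of the ALK inhibitor is given for the sequenced cells, and whether each line is a pool or a single clone is not given in the sources used here. The inhibitor was given only to WT CDK9 cells, so the Tyr19Phe CDK9 group differs from the treated group in both the allele and the treatment. Counts per gene do not show the substitution itself. Nothing in the labels says that the libraries came from separate cultures, so the p-values measure the spread between these libraries, which may be technical.

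IGFBPs are secreted proteins that hold insulin-like growth factors in the fluid around cells, where they prolong the life of the hormones and limit their access to the IGF1 receptor. Proteases cut the binding proteins and free the ligand, and several members also bind the cell surface or the matrix without a ligand. IGFBP3 and IGFBP5 can join IGF and the acid-labile subunit IGFALS in a ternary complex, IGFBP6 prefers IGF2, and IGFBP7 binds IGFs only weakly.

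Total counts ranged from 18169050 to 20974903 in the 6 WT CDK9 libraries with and without inhibitor and from 26485891 to 29320184 in the 3 Tyr19Phe CDK9 libraries, so the latter were deeper. Levels are CPM, the counts of a gene divided by the TMM-scaled library total and multiplied by 1e+06, and a floor of 3 counts was worth 0.102 to 0.165 CPM, for counting error only. Epithelial markers summed to between 5165 and 5987 CPM, whereas MUC16 had at most 9 counts and WT1 7 to 52. Leukocyte markers summed to at most 0.237 CPM. The endothelial markers summed to 1.05 to 1.39 CPM in Tyr19Phe CDK9 cells and to at most 0.641 CPM elsewhere. Of these, CDH5 had 14 to 35 counts in Tyr19Phe CDK9 libraries and at most 1 elsewhere. PECAM1 had 0 counts in Tyr19Phe CDK9 libraries and at most 3 elsewhere, and VWF ranged from 1 to 17 counts over all libraries. Of the fibroblast markers DCN and LUM had at most 4 counts, and COL1A1 ranged from 807 to 2714 counts. The fibroblast sum was 103 to 107 CPM in WT CDK9 cells, 115 to 149 CPM with the inhibitor and 30.6 to 45.2 CPM in Tyr19Phe CDK9 cells. Their part in the results was not tested.

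The promoters of IGFBP3, IGFBP5 and IGFBP6 are shown because these members carried the largest differences from WT CDK9 among those above 10 CPM. Promoters from RefSeq (GRCh38.p14) were at hand for 5 of the 7 members. Each runs from 250 bases before a start given by RefSeq to 50 bases after it, and that start can differ from the one in the deposited table. The IGFBP3 window is chr7:45921223-45921522 on the minus strand, and the span of IGFBP3 in the deposited table contains all of it. The IGFBP5 window is chr2:216695500-216695799 on the minus strand and the IGFBP6 window is chr12:53097417-53097716 on the plus strand. The deposited span of IGFBP6 starts at 53097436, so most of its window, with both matches, lies inside that span. Capitals mark the letters searched for on both strands, and no matches overlapped. The first motif was the GC box GGGCGG, whose reverse complement reads CCGCCC. The next was the TATA box, spelled TATAAA and on the opposite strand TTTATA. The last was the core of TEAD sites, GGAATG, whose reverse complement is CATTCC.
IGFBP3: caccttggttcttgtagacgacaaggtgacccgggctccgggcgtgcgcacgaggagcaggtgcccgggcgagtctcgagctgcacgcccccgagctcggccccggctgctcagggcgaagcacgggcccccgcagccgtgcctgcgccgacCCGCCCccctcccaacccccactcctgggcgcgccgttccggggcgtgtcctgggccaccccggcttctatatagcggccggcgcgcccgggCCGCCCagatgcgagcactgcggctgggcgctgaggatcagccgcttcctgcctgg
IGFBP5: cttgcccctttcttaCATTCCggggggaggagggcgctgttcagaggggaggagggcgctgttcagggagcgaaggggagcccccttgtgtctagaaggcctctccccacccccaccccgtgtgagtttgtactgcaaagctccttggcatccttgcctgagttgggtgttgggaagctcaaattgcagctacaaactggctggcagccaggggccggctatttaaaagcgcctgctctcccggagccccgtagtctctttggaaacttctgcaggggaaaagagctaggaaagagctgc
IGFBP6: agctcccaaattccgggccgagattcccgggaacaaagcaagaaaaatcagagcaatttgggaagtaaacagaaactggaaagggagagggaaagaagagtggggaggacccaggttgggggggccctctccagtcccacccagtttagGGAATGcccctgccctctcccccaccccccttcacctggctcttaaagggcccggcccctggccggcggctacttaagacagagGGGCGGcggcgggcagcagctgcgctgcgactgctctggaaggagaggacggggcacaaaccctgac
The IGFBP3 window was 74.7% G or C and held 2 GC boxes. IGFBP5 had 59% G or C and 1 match to GGAATG, far from its start. IGFBP6 had 61.7% G or C, with 1 GC box and 1 match to GGAATG. None of the 3 windows held TATAAA. Among 35116 RefSeq promoters of the same length, 45% held a GC box, 11.5% held TATAAA and 14% held GGAATG on either strand. The matches are descriptions of the letters and not binding sites.

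The members differed widely in level when CPM were divided by gene length in kilobases. IGFBP3 led with a mean of 369 CPM per kilobase over the 9 libraries, higher than 99.7% of tested genes. It was followed by IGFBP7 at 112, IGFBP6 at 61.4, IGFBP5 at 15.2 and IGFBP1 at 4.39 CPM per kilobase. The ranges over libraries of these 5 neighbours did not overlap. IGFBP4 at 0.142 and IGFBP2 at 0.055 CPM per kilobase came last, and their ranges overlapped. SKOV3 cells of all 3 groups thus held mostly IGFBP3, IGFBP7 and IGFBP6 RNA.

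**Figure D1:**
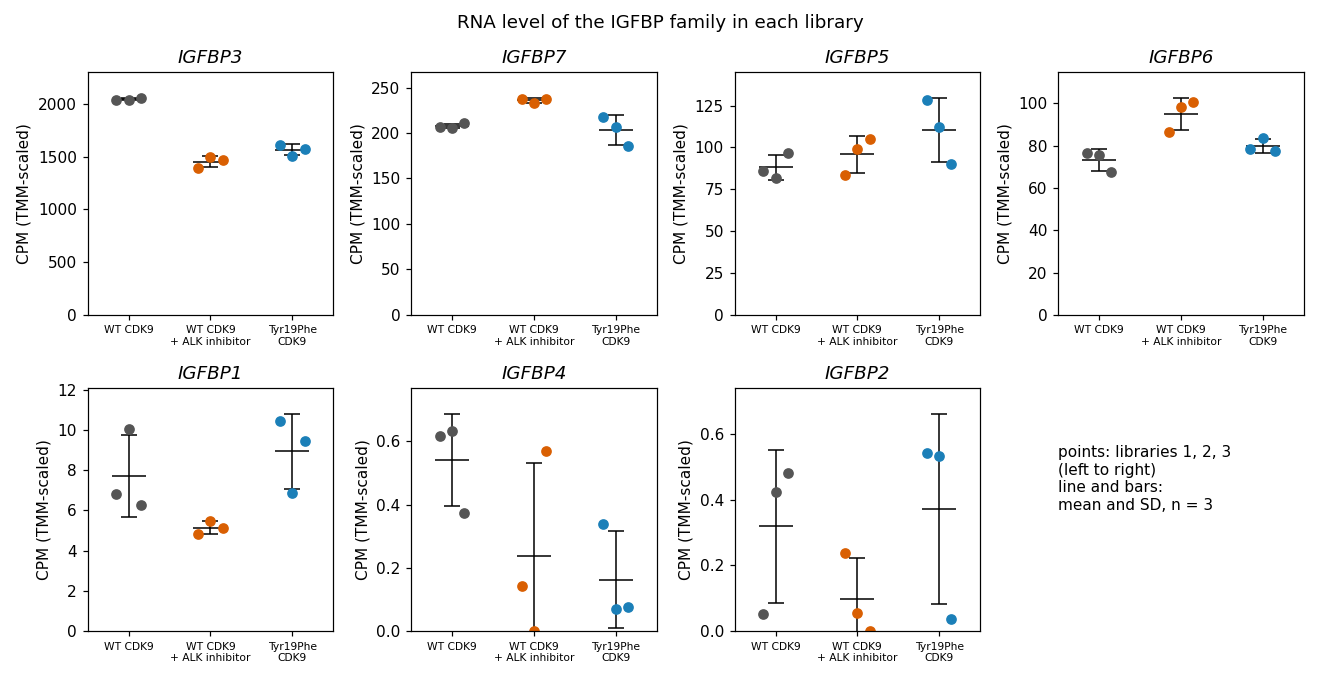
CPM of each of the 7 IGFBP genes (vertical axis, linear from 0 and scaled separately for each gene) in the 9 libraries, with points for libraries 1 to 3 of each group and bars for the mean and SD of 3 libraries. All 6 libraries with the inhibitor or Tyr19Phe CDK9 lie below the 3 WT CDK9 libraries for IGFBP3, while IGFBP6 and IGFBP7 are highest with the inhibitor and IGFBP1 is lowest there.

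IGFBP3, the main carrier of IGFs in serum, lies on chromosome 7 from 45912245 to 45921874 on the minus strand. Its level was 2038, 2039 and 2058 CPM in the 3 WT CDK9 libraries, a mean of 2045 ± 11.3 (SD, n = 3). With the ALK inhibitor it was 1392, 1496.5 and 1469 CPM, a mean of 1452 ± 54.2 (SD, n = 3). Tyr19Phe CDK9 libraries held 1615.5, 1509 and 1573 CPM, a mean of 1566 ± 53.4 (SD, n = 3). No library of either group reached the lowest WT CDK9 library. The log2 difference from WT CDK9 was -0.49 ± 0.03 (SE) after ALK inhibition and -0.39 ± 0.03 for Tyr19Phe CDK9, levels of 0.710 and 0.766 times that of WT CDK9. Both differences share the same WT CDK9 libraries. Between Tyr19Phe CDK9 and the inhibitor, which are the same libraries again, the difference was 0.11 ± 0.03. It was 0.079 without inhibitor library 1 and 0.084 without Tyr19Phe library 1.

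IGFBP7, a matrix-associated member, lies on chromosome 4 from 57030773 to 57110385 on the minus strand. Its level was 207, 206 and 211 CPM in WT CDK9 cells, 237, 233 and 238 CPM with the inhibitor, and 217, 207 and 185 CPM with Tyr19Phe CDK9. The 3 inhibitor libraries stood above all the others, and the other groups overlapped. IGFBP7 rose by 0.18 ± 0.05 on the log2 scale with the inhibitor (edgeR, adjusted p = 0.0215), a small change that passed the threshold in only 1 of 6 fits leaving out a library, with adjusted p from 0.0407 to 0.0972. The difference between Tyr19Phe and WT CDK9 was -0.03 ± 0.05 (adjusted p = 0.752), with a 95% interval from -0.13 to 0.07. Tyr19Phe CDK9 cells were lower than inhibitor-treated cells by a log2 difference of -0.21 ± 0.05 (adjusted p = 0.0014), which was called under every alternative tried. The span of IGFBP7 overlaps POLR2B, a subunit gene of RNA polymerase II on the other strand, over 396 bases, and POLR2B had 3527 to 4466 counts. Whether counting used strand is not given in the sources used here, and without strand reads in the shared stretch cannot be told apart. IGFBP7-AS1, an antisense gene overlapping over 624 bases, had at most 5 counts, and the pseudogene UBE2CP3 at most 2.

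IGFBP6, the member that prefers IGF2, lies on chromosome 12 from 53097436 to 53102345 on the plus strand. It was measured at 76.8, 75.4 and 67.3 CPM in WT CDK9 cells, at 86.3, 98.1 and 100.6 CPM with the inhibitor, and at 78.5, 83.5 and 77.4 CPM with Tyr19Phe CDK9. The inhibitor libraries were above every other library, and the Tyr19Phe libraries were above the WT CDK9 libraries by a narrow margin. IGFBP6 rose by 0.38 ± 0.07 with the inhibitor (edgeR, adjusted p = 4.3e-04), a call that held under every alternative tried. Against WT CDK9, Tyr19Phe CDK9 gave 0.12 ± 0.07 (adjusted p = 0.231), with a 95% interval from -0.01 to 0.26. Directly compared, IGFBP6 was lower in Tyr19Phe CDK9 than in inhibitor-treated cells by a log2 difference of -0.25 ± 0.07 (adjusted p = 0.00665). Without inhibitor library 3 that difference was -0.21 and the adjusted p 0.0639.

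IGFBP5, a member found in matrix and bone, lies on chromosome 2 from 216672105 to 216695525 on the minus strand. Its level was 85.9, 81.9 and 96.6 CPM in WT CDK9 cells and 83.7, 98.9 and 105 CPM with the inhibitor. Tyr19Phe CDK9 libraries held 129, 112 and 90.4 CPM. Library 3 of that group lay inside the range of the other groups, so all groups overlapped. With Tyr19Phe CDK9, IGFBP5 rose over WT CDK9 by 0.33 ± 0.09 (edgeR, adjusted p = 0.00713). The call depended on the setting, with an adjusted p of 0.117 by DESeq2 and a log2 difference of 0.20 with an adjusted p of 0.126 without Tyr19Phe library 1. The inhibitor gave 0.12 ± 0.09 (adjusted p = 0.605), with a 95% interval from -0.06 to 0.30. The direct difference of 0.21 ± 0.09 did not pass the threshold (adjusted p = 0.0916), although it did without the filter on low counts and without Tyr19Phe library 3. An antisense gene overlapping IGFBP5, AC007563.2, had at most 2 counts.

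IGFBP1, which insulin represses in the liver, lies on chromosome 7 from 45888357 to 45893668 on the plus strand. The gene runs towards IGFBP3, and 18576 bases lie between their ends. The 3 WT CDK9 libraries held 6.82, 10.0 and 6.25 CPM, from 117 to 190 counts. With the inhibitor the level was 4.84, 5.49 and 5.12 CPM, and with Tyr19Phe CDK9 it was 10.5, 6.87 and 9.47 CPM. Inhibitor libraries were below every other library, and the WT CDK9 and Tyr19Phe libraries overlapped. Neither difference from WT CDK9 was called, with -0.58 ± 0.21 for the inhibitor (edgeR, adjusted p = 0.12) and 0.21 ± 0.20 for Tyr19Phe CDK9 (adjusted p = 0.523). Their 95% intervals ran from -1.0 to -0.16 and from -0.18 to 0.61 before any adjustment for the number of genes. Leaving out a library moved the inhibitor difference between -0.71 and -0.34, with adjusted p from 0.0683 to 0.562, and the smallest difference came without WT library 2. IGFBP1 was higher in Tyr19Phe CDK9 than in inhibitor-treated cells by 0.80 ± 0.20 (adjusted p = 0.00393), and this call held under every alternative tried.

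IGFBP4 and IGFBP2 were close to the limit of detection. IGFBP4, a carrier that pappalysin cuts, lies on chromosome 17 from 40443461 to 40457731 on the plus strand and had 12, 12 and 7 counts in WT CDK9 libraries, 3, 0 and 11 in treated libraries, and 10, 2 and 2 in Tyr19Phe CDK9 libraries. It passed the filter but was not called, with log2 differences from WT CDK9 of -1.17 ± 0.96 (edgeR, adjusted p = 0.654) and -1.69 ± 0.96 (adjusted p = 0.251). IGFBP2, on chromosome 2 from 216632828 to 216664436 on the plus strand and 7668 bases from the end of IGFBP5, had 1, 8 and 9 counts in WT CDK9 cells, 5, 1 and 0 in treated cells, and 16, 15 and 1 in Tyr19Phe CDK9 cells. Its range within a group exceeded the distance between groups, and it was not tested.

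Counting the members beside all genes, 1 of the 6 tested members was called lower and 2 were called higher with the inhibitor, against 2.73% and 1.82% of 16350 tested genes. The member called lower was IGFBP3, whose values were taken as those that chose the family, so nothing is read from its calls. With Tyr19Phe CDK9, 1 was called lower, again IGFBP3, and 1 higher, against a background of 10.4% and 7.61%. Between Tyr19Phe CDK9 and the inhibitor, IGFBP6 and IGFBP7 were called lower and IGFBP1 and IGFBP3 higher, so 2 of 6 in each direction, where 11.1% of tested genes were lower and 9.57% higher. The IGFBP3 call, lost in 3 of 15 alternatives, is counted here but nothing is read from it. With so few members these shares are a description only. Scaling by library size alone changed the balance of the background, from 447 lower and 297 higher genes to 344 and 406 for the inhibitor, and from 1695 and 1245 to 1451 and 1544 for Tyr19Phe CDK9.

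**Figure D2:**
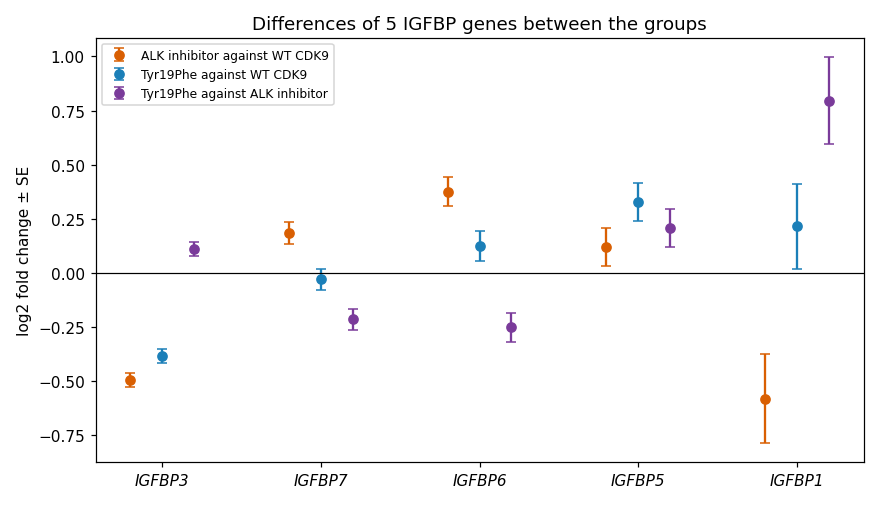
Log2 fold change (vertical axis) of the 5 members above 1 CPM in each of the 3 comparisons, with bars for the SE of the edgeR fit to 9 libraries. IGFBP3 is below 0 against WT CDK9 in both comparisons, IGFBP6 is highest with the inhibitor at 0.38, and the direct difference of IGFBP1 is 0.80.

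Added up per gene length, the family's total was smaller in both groups than in WT CDK9 cells. IGFBP3 makes up most of the total, so this drop follows from the gene whose values were taken as those used for the choice and is a description only. The sum was 628 ± 0.441 CPM per kilobase (SD, n = 3) in WT CDK9 cells, 529 ± 18.2 in treated cells and 530 ± 18.3 in Tyr19Phe CDK9 cells, and neither group overlapped WT CDK9. IGFBP3 made up 71.2% of the WT CDK9 sum, 60.1% after treatment and 64.7% in Tyr19Phe CDK9 cells. The other 6 members together held 178 to 182 CPM per kilobase in WT CDK9 libraries and 203 to 217 with the inhibitor, without overlap. In Tyr19Phe CDK9 libraries they held 173 to 197, which spanned the WT CDK9 range. IGFBP7 made up 17.1%, 23.1% and 19.9% of the sum in the same order and IGFBP6 8.66%, 13.3% and 11.2%. A share moves with IGFBP3 even where the other member does not change.

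**Figure D3:**
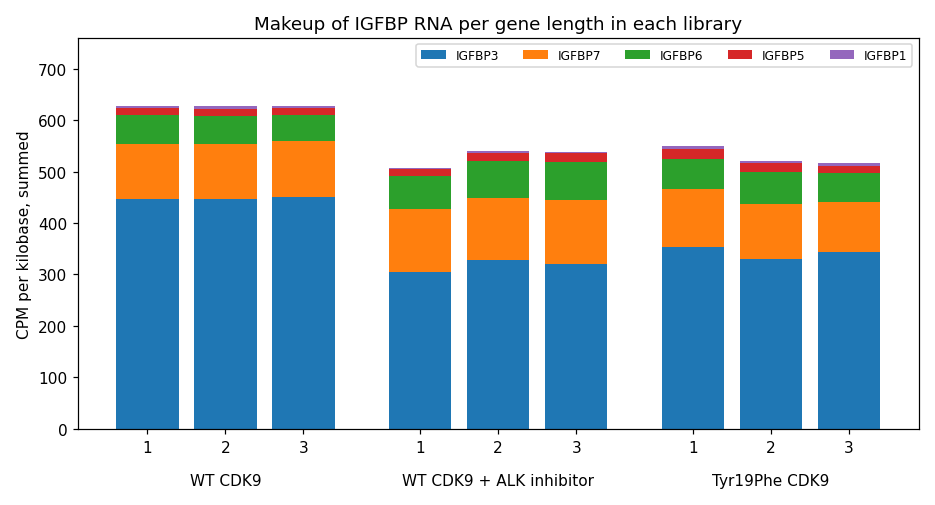
Stacked bars of CPM per kilobase (vertical axis, from 0) of 5 IGFBP genes in each of the 9 libraries, numbered 1 to 3 within each group, with IGFBP4 and IGFBP2 left out as too low to see. The bars reach about 628 in WT CDK9 cells and a mean of 529 and 530 in the other groups, and IGFBP3, at the base, takes most of each bar.

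The chromosomal surroundings of the members were described beside them. Around IGFBP7, the 29 tested genes within 5 Mb had a median log2 difference of -0.21 between Tyr19Phe and WT CDK9, and 9 of them (31%) were called lower and 1 higher, beside 10.4% and 7.61% of all tested genes. Within 1 Mb, 5 of 9 were called lower and the median was -0.30, whereas IGFBP7 itself was at -0.03. Their medians with the inhibitor were near 0, at -0.0023 within 5 Mb and 0.03 within 1 Mb. Between Tyr19Phe CDK9 and the inhibitor, the neighbours of IGFBP7 had medians of -0.20 within 5 Mb and -0.29 within 1 Mb. IGFBP7 itself was at -0.21 there. Of these neighbours, 9 of 29 and 5 of 9 were called lower, beside 11.1% of all tested genes. The 49 tested genes within 5 Mb of IGFBP3 had medians of -0.08 after treatment and 0.06 for Tyr19Phe CDK9, against -0.49 and -0.39 for IGFBP3. Medians around IGFBP5 were 0.0042 and 0.08, and around IGFBP6 0.04 and 0.01. In the direct comparison the medians within 5 Mb were 0.11 for IGFBP3, 0.11 for IGFBP1, 0.06 for IGFBP5 and -1e-04 for IGFBP6. The members themselves were at 0.11, 0.80, 0.21 and -0.25 in the same order. Between Tyr19Phe and WT CDK9, 7 of 30 genes within 1 Mb of IGFBP4 (23.3%) and 2 of 8 near IGFBP5 (25%) were called lower. The counts were 3 of 36 near IGFBP6 (8.33%) and 0 of 8 near IGFBP3. With the inhibitor, 5 of 30 genes within 1 Mb of IGFBP4 (16.7%) were called higher and 0 lower, beside 1.82% and 2.73% of all tested genes. In the direct comparison, 8 of 49 within 5 Mb of IGFBP3 (16.3%) were called higher and 2 lower, beside 9.57% and 11.1%. The part of the region in the level of IGFBP7 or of another member was not tested.

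**Figure D4:**
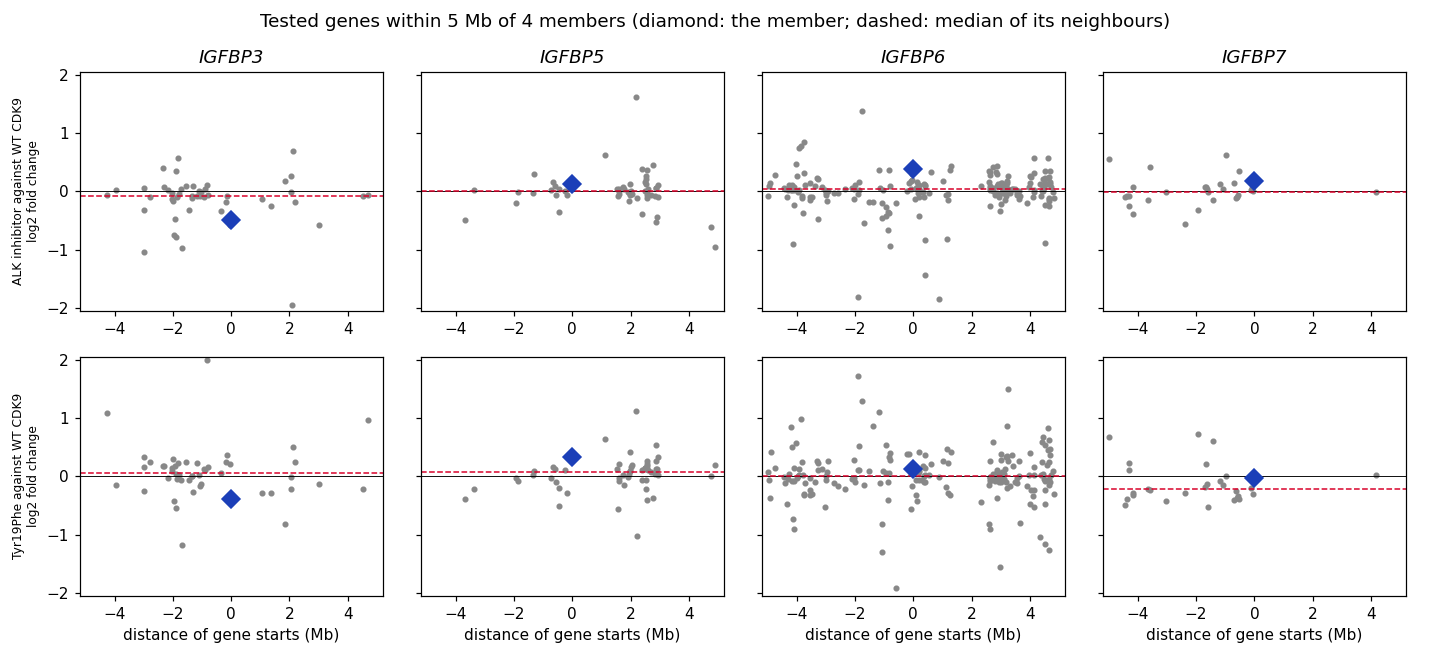
Log2 fold change from WT CDK9 (vertical axis) of tested genes by the distance of their start from that of a member in megabases (horizontal axis), with a diamond for the member and a dashed line for the median of its neighbours, and 3 of 648 points beyond the vertical limits not drawn. The median near IGFBP7 is -0.21 with Tyr19Phe CDK9, and IGFBP3 lies below the median of its own neighbours in both comparisons.

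The other genes of the pathway were taken from a fixed list of 41, of which 28 could be tested. With the inhibitor 6 were called lower and 2 higher, where 2.73% and 1.82% of all tested genes were, and their median log2 difference was 0.04 beside -0.0010 for all tested genes. With Tyr19Phe CDK9 7 were called lower and 5 higher, where 10.4% and 7.61% of all tested genes were, with a median of 0.04 beside 0.0035. The direct comparison called 6 lower and 7 higher, where 11.1% and 9.57% of all tested genes were, with a median of 0.01 beside 0.0018. The list was chosen with results known, so these counts are a description.

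The ligands were nearly absent from these cells. IGF2, listed as 2 entries, and INS had 0 counts in all 9 libraries, which allows up to 0.165 CPM in the shallowest, and IGF1 had at most 1 count. IGFALS, the subunit of the ternary complex, had 0 to 16 counts and was not tested. Among the receptors, the signalling receptor IGF1R, named here for its role and outside the rule for naming genes, was at 51.9 CPM in WT CDK9 cells, 53.4 after treatment and 53.0 in Tyr19Phe CDK9 cells, and neither difference from WT CDK9 was called (adjusted p = 0.89 and 0.855). IGF2R, which clears IGF2, fell with Tyr19Phe CDK9 by 0.31 ± 0.04 on the log2 scale, from 435 to 352 CPM (adjusted p = 5.26e-07), and was at 447 CPM with the inhibitor. INSR, the insulin receptor, fell by 0.75 ± 0.19 with Tyr19Phe CDK9, from 10.3 to 6.08 CPM (adjusted p = 0.00444). With the inhibitor INSR was at 9.09 CPM, a log2 difference of -0.17 ± 0.19 (adjusted p = 0.772).

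Of the proteases that cut IGFBPs, 4 of 7 were tested. The background of all tested genes called higher than WT CDK9 was 1.82% for the inhibitor but 7.61% for Tyr19Phe CDK9. The shares called lower were 2.73% and 10.4%. The list was chosen with results known, so a count of 1 beside these shares is a description only. Of the 4 proteases, 1 was called in each comparison with WT CDK9, both times higher. This was ADAM12, a membrane protease that cuts IGFBP3 and IGFBP5, which rose by 0.52 ± 0.07 with the inhibitor (adjusted p = 1.68e-06) and by 0.49 ± 0.07 with Tyr19Phe CDK9 (adjusted p = 1.3e-06), from 65.1 CPM to 93.5 and 91.4 CPM. The difference between these groups was -0.03 ± 0.07, with a 95% interval from -0.17 to 0.10. PAPPA, the pappalysin that cuts IGFBP4, had at most 20 counts, and PAPPA2 had 0 counts in every library. STC2, an inhibitor of pappalysin, rose with Tyr19Phe CDK9 from 4.91 to 10.6 CPM, by 1.11 ± 0.24 (adjusted p = 7.92e-04), while the inhibitor gave 0.12 ± 0.25 (adjusted p = 0.9).

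Of 12 relatives listed here for an IGFBP domain, 7 were tested, and 3 were called lower and 1 higher in each comparison with WT CDK9. The background was 2.73% lower and 1.82% higher for the inhibitor but 10.4% and 7.61% for Tyr19Phe CDK9. The list was chosen with results known, so these counts are a description only. HTRA1, listed with the proteases and not counted among the 12, was not called against WT CDK9 (edgeR, adjusted p = 0.6 and 0.151). CCN1, a matrix protein of the CCN family, fell by 0.50 ± 0.04 after ALK inhibition and by 0.35 ± 0.04 with Tyr19Phe CDK9 (adjusted p = 3.66e-10 and 2.24e-07). CCN2, also known as connective tissue growth factor, fell by 0.32 ± 0.05 and 0.40 ± 0.05 (adjusted p = 2.47e-05 and 1.68e-07). CRIM1, a transmembrane protein that binds bone morphogenetic proteins, fell by 0.37 ± 0.04 and 0.34 ± 0.04 (adjusted p = 1.33e-08 and 2.33e-08). These 3 genes had WT CDK9 means of 696.5, 644 and 607 CPM. CCN3 rose with the inhibitor by 0.51 ± 0.14 (adjusted p = 0.0257), a call lost in 4 of 6 fits that left out a library, with adjusted p up to 0.113. IGFBPL1 rose with Tyr19Phe CDK9 by 0.79 ± 0.20, from 4.31 to 7.45 CPM (adjusted p = 0.00556).

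Among the adaptors that couple the receptors to signalling, IRS1 and IRS2 were lower with the inhibitor and not with Tyr19Phe CDK9, and the groups differed when compared directly. IRS1 fell by 0.40 ± 0.09 with the inhibitor (adjusted p = 0.00369) and rose by 0.27 ± 0.08 with Tyr19Phe CDK9 (adjusted p = 0.0241). The rise was lost in 3 of 6 fits leaving out a library, with adjusted p up to 0.118. IRS2 fell by 0.51 ± 0.07 with the inhibitor (adjusted p = 4.24e-06), and was at 0.13 ± 0.07 with Tyr19Phe CDK9 (adjusted p = 0.195). Directly compared, Tyr19Phe CDK9 cells were higher by 0.66 ± 0.09 for IRS1 and by 0.64 ± 0.07 for IRS2 (adjusted p = 4.47e-07 and 1.25e-08). GRB10, an adaptor that dampens insulin receptor signalling, rose with Tyr19Phe CDK9 from 11.4 to 22.3 CPM, by 0.97 ± 0.13 (adjusted p = 1.66e-06), and was at -0.05 ± 0.14 with the inhibitor (adjusted p = 0.921).

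Of the proteins that bind IGF2 mRNA, IGF2BP2 fell by 0.28 ± 0.05 after ALK inhibition and by 0.18 ± 0.05 with Tyr19Phe CDK9 (adjusted p = 1.31e-04 and 0.00449), from 199 to 164 and 175 CPM. IGF2BP3 was not called in either comparison with WT CDK9, and neither was IGF2BP1, at under 1 CPM in every group mean. LRP1, a surface receptor that IGFBP3 can bind, was at 0.24 ± 0.07 with the inhibitor (adjusted p = 0.0515; 0.0105 without WT library 1), and fell by 0.24 ± 0.07 with Tyr19Phe CDK9 (adjusted p = 0.019). The latter call was lost in 3 of 6 fits leaving out a library, with an adjusted p of 0.0771 without Tyr19Phe library 2, 0.116 without Tyr19Phe library 3, and 0.262 without WT library 1, where the difference was -0.14. The direct difference of LRP1 was -0.48 ± 0.07 (adjusted p = 6.64e-06). TMEM219, a cell surface receptor of IGFBP3, was not called against WT CDK9. Its direct difference was -0.24 ± 0.07 (adjusted p = 0.0169), a call lost in 2 of 6 fits leaving out a library, with adjusted p up to 0.0856.

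**Figure D5:**
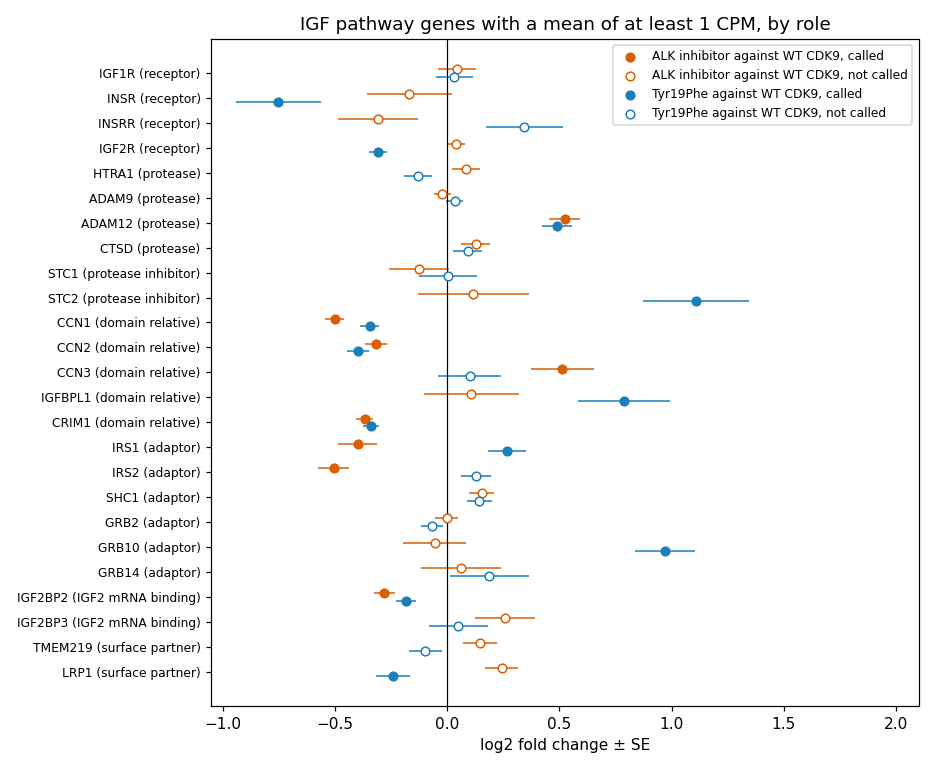
Log2 fold change from WT CDK9 (horizontal axis, with SE bars) of the tested pathway genes averaging 1 CPM or more, ordered by role, with filled points for genes called at an adjusted p under 0.05. ADAM12 lies above 0 and CCN1, CCN2, CRIM1 and IGF2BP2 below 0 in both comparisons, while IRS2 lies at -0.51 with the inhibitor and at 0.13 with Tyr19Phe CDK9.

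Genes with the pattern most like a member were sought among 9775 genes of at least 10 CPM by the correlation of log2 CPM over the 9 libraries, which fall into 3 groups, so a shared difference between groups weighs heavily in each r. For IGFBP3 these were CAV1, the coat protein of caveolae (r = 0.992), GFRA1, a co-receptor of GDNF (r = 0.989), and ZNF431 (r = 0.982). Without the 2 libraries farthest from the median, WT libraries 2 and 3, the values were 0.984, 0.980 and 0.968. WT library 1 then stands alone for its group, so these values still rest on the difference between groups. IGFBP7 was closest to ATXN1 (0.977), LMBRD1 (0.972) and ABHD3 (0.963), and IGFBP6 to PRKD2 (0.962), FAM214B (0.952) and KDM5B (0.943). For IGFBP5 the leading genes SOD3, MED18 and SEMA4C reached only 0.911, 0.903 and 0.899. For the genes named with IGFBP7 r stayed between 0.963 and 0.990 without the 2 farthest libraries. For those with IGFBP6 it was 0.904, 0.912 and 0.816 without inhibitor libraries 2 and 3, which leaves inhibitor library 1 alone for its group. For those with IGFBP5 it was 0.823, 0.856 and 0.815. With many genes searched, the leading values are high by choice.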

How the data were processed

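The authors deposited raw read counts for each gene and library, from reads mapped to hg38, beside the position and length of each gene. The submitters' processing notes name HISAT2 2.0.5 and featureCounts 1.5.0-p3, and the annotation release and strand setting are not given in the sources used here. The 9 libraries were grouped by their labels. Members and lists were chosen with earlier results of these data known.

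The count table was tested with edgeR 4.0.16 under R 4.3.3. Genes passed filterByExpr (minimum count 10, minimum total 15), libraries were scaled by TMM, and the quasi-likelihood fit, in which each group had its own mean, covered the 16350 remaining genes and all 9 libraries. P-values were adjusted over these genes by the Benjamini-Hochberg method and called under 0.05. Standard errors were derived from the log2 fold change and its F statistic. CPM per kilobase used the deposited gene length, and log2 CPM a prior count of 2. The code was tested on simulated counts.

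The named pathway genes are those called against WT CDK9 with an absolute log2 difference of at least 0.3, and otherwise up to 3 per role with the highest level per length. Promoters came from RefSeq (GRCh38.p14). Alternatives were other scalings, DESeq2 1.42.0, other filters, a replicate block, only the compared groups, each library left out and an adjusted p under 0.01.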

Additional observations from a re-analysis of the deposited data

How the results depend on the processing

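Every difference of the 6 tested members from WT CDK9 kept its direction in every fit computed, except IGFBP7 with Tyr19Phe CDK9. That difference ranged from -0.0795 to 0.038 when each library was left out. IGFBP2 was not followed in these fits. The count of members called with Tyr19Phe CDK9 against WT CDK9 was 2 of 6 tested, beside 1695 lower and 1245 higher of 16350 genes. The count was 1 with DESeq2, IGFBP3 alone, beside 1695 and 1230 of 14422 genes, and between 1 and 2 when each library was left out. IGFBP3, whose values were taken as those that chose the family, is in each of these counts, so nothing is read from them. At an adjusted p under 0.01, 8 of 28 tested pathway genes were called between Tyr19Phe CDK9 and the inhibitor, and 13 at 0.05. Of all 16350 tested genes, 1153 were called lower and 935 higher at 0.01, and 1822 and 1565 at 0.05. Without division by length 5 of the 7 members kept their place in the order, and IGFBP5 passed IGFBP6.

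Leaving out a library turned the sign of several differences that were not called. For the inhibitor against WT CDK9 the ranges were -0.27 to 0.50 for STC2, -0.15 to 0.0571 for GRB10, -0.0246 to 0.0807 for IGF1R and -0.38 to 0.0621 for INSR. For Tyr19Phe against WT CDK9 they were -0.0288 to 0.15 for IGF2BP3, -0.0224 to 0.13 for IGF1R and -0.0399 to 0.19 for CCN3. For Tyr19Phe CDK9 against the inhibitor they were -0.0682 to 0.0818 for IGF1R, -0.45 to 0.87 for IGF2BP1, -1.62 to 1.08 for IGFBP4 and -0.0823 to 0.0029 for ADAM12. LRP1 with the inhibitor passed the threshold under every other scaling and with DESeq2, where the adjusted p was 0.0458. The causes were not tested.

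Over all tested genes, the deviations of same-numbered libraries of different groups from their group means had correlations from -0.012 to 0.026. Libraries of unlike number were not compared, and whether an equal number marks a shared batch was not tested. With a replicate block 3, 2 and 4 members were called for the inhibitor, Tyr19Phe CDK9 and the direct comparison, as without it. IGFBP3 is among them each time, so nothing is read from these counts of members. With the block 494 genes were called lower and 324 higher for the inhibitor. For the inhibitor 293 genes were called lower and 198 higher without WT library 1, and 260 and 167 at an adjusted p under 0.01, against 447 and 297. For Tyr19Phe CDK9 1135 and 715 were called at 0.01, against 1695 and 1245, and for the direct comparison 1153 and 935, against 1822 and 1565. IGFBP2 had at most 16 counts in a library and IGFBP4 at most 12.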
